A study of Mus musculus with 8 samples.

Results

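The genes described here are 6 genes of prostaglandin synthesis (Ptgs1, Ptgs2, Ptges, Ptges2, Ptges3 and Ptgis) and the receptor gene Ppard, measured on 1-colour microarrays in whole mouse embryos of 2 stages. Blastocysts (E4.5) had been taken 120 h after the ovulation-inducing hormone hCG was given and 8-cell embryos (E2.5) 66 h after it, and each stage had 4 arrays. All embryos were wild type, came from B6D2F1 parents and were cultured from the 1-cell stage in KSOM medium, so no group developed in the oviduct or uterus. How many embryos went into an array, and whether arrays of 1 stage came from separate collections, is not stated, and the p-values cover only the spread between arrays, which may be technical.

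Members were the probe sets whose annotated gene symbol was exactly one of the 7 names. There were 9 of them among 45037 probe sets, and they covered 5 of the 7 genes (the whole array had 18193 genes with a probe set of 1 symbol): 2 for Ptgs2, 3 for Ptges, 1 for Ptges2, 1 for Ptgis and 2 for Ppard. Ptgs1 had no such probe set and is not analysed here. The 2 probe sets annotated with Ptges3 also carry the symbol of its pseudogene, so the rule leaves them out. A further probe set that shares the Ppard symbol with another gene was left out in the same way.

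Prostaglandins are short-lived lipid signals that cells make from arachidonic acid, a fatty acid that phospholipases release from membranes. The cyclooxygenases Ptgs1 and Ptgs2 turn it into prostaglandin H2. Terminal synthases then make the final products: Ptges, Ptges2 and Ptges3 have been described as prostaglandin E synthases, and Ptgis makes prostacyclin. Ppard encodes PPAR delta, a fatty-acid-sensing nuclear receptor that binds DNA together with a retinoid X receptor. In the mouse, prostacyclin and PPAR delta have been linked to blastocyst hatching and implantation.

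The promoters of Ptges, Ptgs2 and Ppard are shown because they belong to the member with the largest difference, to a cyclooxygenase gene and to the receptor gene. They run from 250 bases before to 50 bases after the gene start and come from RefSeq for the build GRCm38.p6, which had an entry for 6 of the 7 genes, Ptgis not among them. Capitals mark every match, on either strand, to the AP-2 motif GCCNNNGGC, the GC box GGGCGG, the E-box CACGTG, the cyclic AMP response half-site TGACG, the TATA box TATAAA, the CCAAT box CCAAT or the PPAR response element, which is a pair of AGGTCA copies in the same direction with 1 base between them. Matches may overlap, as the half-site and the E-box do in Ptgs2. The first is the Ptges promoter (chr2:30903248-30903547, minus strand), the second that of Ptgs2 (chr1:150099781-150100080, plus strand) and the third that of Ppard (chr17:28232504-28232803, plus strand), each written 5′ to 3′.
Ptges: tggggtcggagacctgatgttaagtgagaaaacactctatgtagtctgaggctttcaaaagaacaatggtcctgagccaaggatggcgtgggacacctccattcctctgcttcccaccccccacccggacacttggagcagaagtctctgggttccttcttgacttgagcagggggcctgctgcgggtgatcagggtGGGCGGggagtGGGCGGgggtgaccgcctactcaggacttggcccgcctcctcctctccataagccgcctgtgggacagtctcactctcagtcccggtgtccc
Ptgs2: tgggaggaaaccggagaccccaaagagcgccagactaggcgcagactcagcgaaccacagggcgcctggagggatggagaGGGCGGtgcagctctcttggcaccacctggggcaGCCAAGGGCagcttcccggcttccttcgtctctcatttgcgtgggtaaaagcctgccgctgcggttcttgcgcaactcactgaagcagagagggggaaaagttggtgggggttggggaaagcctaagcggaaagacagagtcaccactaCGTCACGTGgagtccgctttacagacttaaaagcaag
Ppard: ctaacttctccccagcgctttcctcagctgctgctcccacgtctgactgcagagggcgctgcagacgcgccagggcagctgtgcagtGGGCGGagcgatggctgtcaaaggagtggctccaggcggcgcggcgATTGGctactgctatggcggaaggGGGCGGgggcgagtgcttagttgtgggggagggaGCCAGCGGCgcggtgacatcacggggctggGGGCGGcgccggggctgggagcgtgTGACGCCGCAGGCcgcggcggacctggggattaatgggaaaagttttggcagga

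The Ptges promoter held 2 GC boxes and no match to the other patterns. A GC box, the pattern bound by Sp1-type factors, stood in 35.7% of the 32851 promoters of the table. The AP-2 motif was searched because the title of the series names the factor AP-2 gamma. It had 1 match in Ptgs2, 2 in Ppard and 1 in Ptges3, and was found in 16.6% of all promoters. Ptgs2 also held 1 GC box, 1 E-box (in 7.15% of promoters) and 1 half-site (20.8%). Ppard held 3 GC boxes, 1 half-site and 1 CCAAT box (37.4%), and Ptges2 only an E-box. No member matched the TATA box (13.6%) or the PPAR response element (0.0396%), and Ptgs1 matched none of the patterns. These matches describe the letters in the windows and say nothing of binding.

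The deposited values are signal intensities, scaled by the authors so that the arrays have the same trimmed mean. A signal is therefore relative to the other signals of its array and is no amount per embryo. Less of a transcript per cell and fewer cells that make it cannot be told apart in whole embryos. Differences are given as the blastocyst mean minus the 8-cell mean of log2(signal + 16), with a standard error (SE), and were tested with limma over 28227 probe sets and adjusted by Benjamini-Hochberg. A probe set was tested if it lay above the 40th percentile of its array (a signal of 28.3 to 35.7) on at least 4 of the 8 arrays. The array medians lay between 47.1 and 56.0. Pearson's r between arrays, over the tested probe sets, was 0.978 to 0.985 among blastocysts, 0.972 to 0.976 among 8-cell embryos and 0.767 to 0.790 across the stages. The number of arrays limits the precision.

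The clearest stage difference among the members was in Ptges, the inducible microsomal prostaglandin E synthase, which was higher in blastocysts on all 3 of its probe sets. Ptgis, the prostacyclin synthase, was lower in blastocysts but bright at both stages. Ptges2 and Ppard were modestly higher, calls that were both lost with quantile scaling (adjusted p = 0.0742 and 0.167 by limma), and the Ppard call was also lost when any of 6 of the 8 arrays was left out. Ptgs2 was dim on all 8 arrays. Of the 9 member probe sets 6 passed the filter, and of these 5 were called higher (3 with quantile scaling) and 1 lower at an adjusted p under 0.05. Over all tested probe sets 33.6% were called higher and 32.8% lower, 66.4% in all, so being called is in itself common between these stages. Of all calls 50.6% were higher, and 70.3% with each array scaled to its 9 bacterial hybridisation controls, a scaling that moved the median of all tested probe sets to 0.43 from -0.01.

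**Figure D1:**
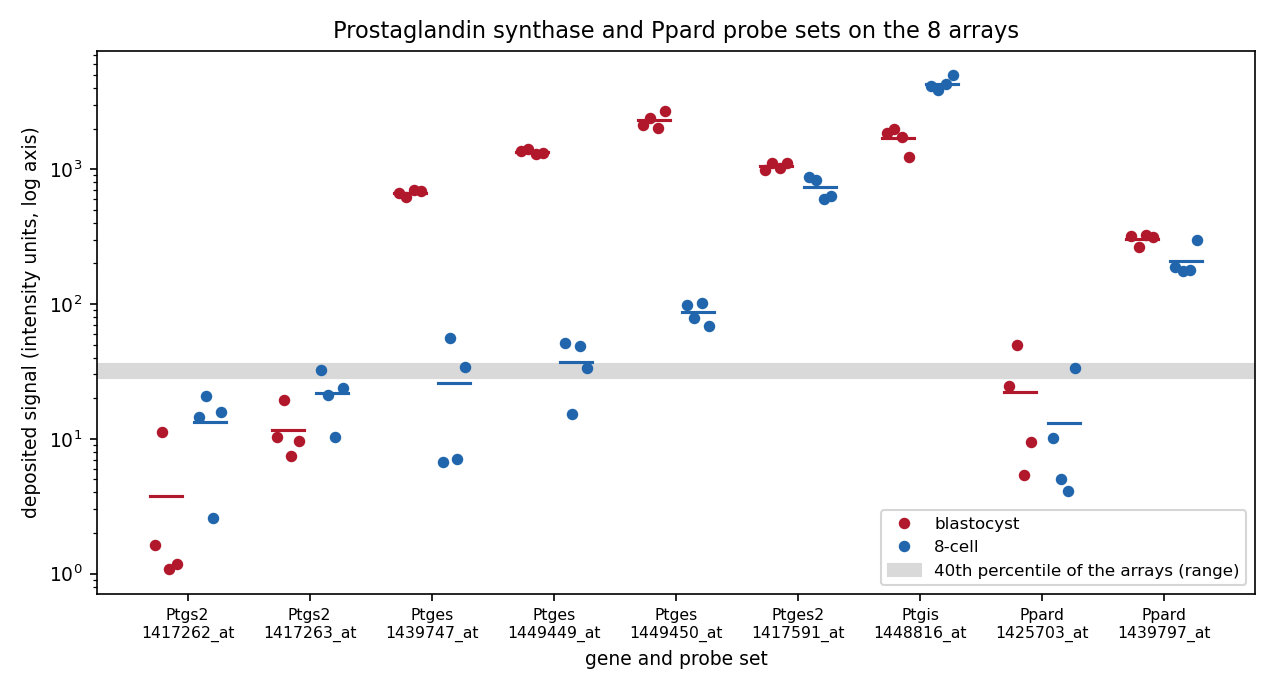
Deposited signal (log axis) of the 9 member probe sets on each array, with blastocyst arrays (red) left of 8-cell arrays (blue). Short lines are means, and the grey band is the range of the 40th percentile over the 8 arrays. The 3 Ptges probe sets are higher in blastocysts without overlap, Ptgis is lower without overlap, and both Ptgs2 probe sets lie at or under the band.

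Cyclooxygenases commit arachidonic acid to the prostaglandins, and Ptgs2 is the form that many cells switch on upon stimulation. Its probe set 1417263_at gave 10.3, 19.6, 7.42 and 9.56 in blastocysts and 32.4, 21.0, 10.4 and 23.8 in 8-cell embryos. The probe set 1417262_at gave 1.62, 11.2, 1.08 and 1.19 in blastocysts and 14.6, 20.8, 2.60 and 15.7 in 8-cell embryos. The stages overlapped on both. Every one of these 16 values was under the 40th percentile of its array, and the highest stood at the 39.7th percentile. Neither probe set passed the filter, so neither was tested in the main comparison. With no filter their differences were -0.44 (1417263_at, adjusted p = 0.135 by limma) and -0.56 (1417262_at, adjusted p = 0.0957). A dim signal gives no level, so these arrays set no order between the stages for Ptgs2.

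Ptges encodes the membrane enzyme that makes prostaglandin E2 from prostaglandin H2 with glutathione, and in many cells it is induced together with Ptgs2. Its brightest probe set, 1449450_at, gave 2141, 2386, 2018 and 2717 in blastocysts and 97.5, 79.1, 101.6 and 69.0 in 8-cell embryos. Every blastocyst array was above every 8-cell array, with means of 2315 ± 308 and 86.8 ± 15.4 (SD, n = 4 each). The difference was 4.51 (SE 0.16, adjusted p = 2.89e-08 by limma), a 22.7-fold rise on the log2(signal + 16) scale. In blastocysts the signal stood between the 90.7th and 93.1st percentiles of the arrays, and in 8-cell embryos between the 55.8th and 61.3rd.

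The other probe sets of Ptges gave the same order of stages. Probe set 1449449_at gave 1355, 1402, 1287 and 1322 in blastocysts against 51.8, 15.4, 49.0 and 33.6 in 8-cell embryos (difference 4.73, SE 0.23, adjusted p = 1.45e-07 by limma). Probe set 1439747_at gave 664.1, 622.0, 699.8 and 688.6 in blastocysts against 6.70, 55.7, 7.10 and 34.3 in 8-cell embryos (difference 4.21, SE 0.35, adjusted p = 3.61e-06 by limma). Blastocyst values spread little, with a coefficient of variation of 3.65% and 5.15% on these probe sets, while the 8-cell values were near the dim end of the arrays, with 44.7% and 91.2%. On 1 and 2 of the 4 8-cell arrays they were under the 40th percentile, so the size of the rise depends on the added 16: with 1 added, 1439747_at gave 5.15, and with 64 added 3.06. The range of the brightest probe set under the same settings was 3.98 (64 added) to 4.73 (1 added). Among all tested probe sets 1.12% to 1.77% had a difference at least as large in size as those of the 3 Ptges probe sets. These 3 probe sets read 1 gene and are not independent measurements.

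**Figure D2:**
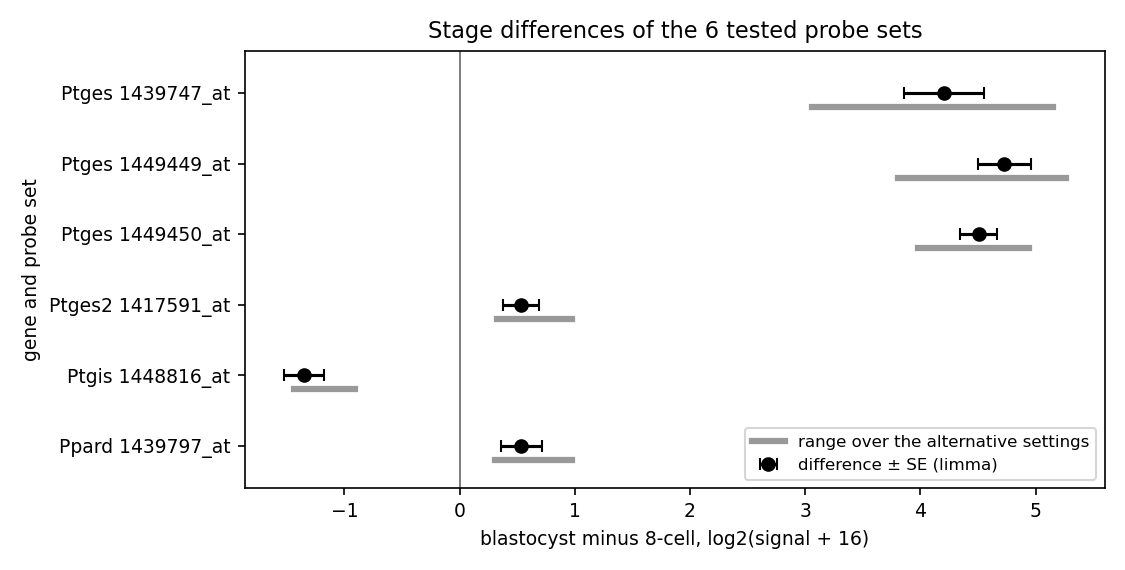
Blastocyst minus 8-cell difference on the log2(signal + 16) scale of the 6 tested member probe sets; points are limma estimates with SE (4 arrays per stage) and grey bars the range over the alternative settings. The 3 Ptges probe sets lie between 4.21 and 4.73, Ptges2 and Ppard at 0.54, and Ptgis at -1.35.

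Ptges2 encodes a second membrane-associated protein first described as a prostaglandin E synthase, which is present in many tissues without induction. It gave 986.3, 1118, 1016 and 1109 in blastocysts and 868.1, 825.2, 600.5 and 635.4 in 8-cell embryos. The 4 blastocyst arrays were above the 4 8-cell arrays, by a narrow margin between 986.3 and 868.1. The means were 1057 ± 66.2 and 732.3 ± 134 (SD, n = 4 each), and the difference 0.54 (SE 0.16, adjusted p = 0.0120 by limma), 1.45-fold. A difference of this size or larger was seen for 65.3% of the tested probe sets. With quantile scaling it was 0.33 and did not pass (adjusted p = 0.0742), and with the hybridisation control scaling it was 0.97, or 0.55 relative to that scaling's median. The difference of Ptges was larger than that of Ptges2 within arrays. The log2 value of Ptges minus that of Ptges2 was 1.11 ± 0.13 in blastocysts and -2.86 ± 0.33 in 8-cell embryos (SD, n = 4 each). An exact permutation test, two-sided, gave p = 0.0286, the smallest that 4 against 4 arrays can give, and an adjusted p = 0.0286 over the 2 pairs run. The gap between the stages in Ptges exceeded the whole range of Ptges2 over the arrays, so no other p was possible. The test therefore adds nothing to the single differences of Ptges and Ptges2. Of 5 planned pairs 3 needed Ptgs1 or Ptges3 and were not run.

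Ptgis encodes prostacyclin synthase, a cytochrome P450 family enzyme that isomerises prostaglandin H2 to prostacyclin. Its signal stood at the 86.6th to 90.7th percentile of the blastocyst arrays and at the 94.6th to 95.8th of the 8-cell arrays. It gave 1849, 1994, 1725 and 1227 in blastocysts and 4115, 3862, 4274 and 4964 in 8-cell embryos, with no overlap. The means were 1699 ± 333 and 4304 ± 472 (SD, n = 4 each). The difference was -1.35 (SE 0.18, adjusted p = 8.09e-05 by limma), 2.55-fold lower in blastocysts, and 30.5% of the tested probe sets had a difference at least as large. With the hybridisation control scaling it was -0.91 (adjusted p = 0.00773), and -1.34 relative to that scaling's median. The 2 terminal synthases changed unequally within arrays: Ptgis minus Ptges was -0.46 ± 0.45 in blastocysts and 5.40 ± 0.32 in 8-cell embryos (SD, n = 4 each). The exact permutation test again gave the smallest possible p = 0.0286. With Ptges higher and Ptgis lower, each without overlap, no other p was possible. This test therefore adds nothing to the 2 single differences.

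Of the tested member probe sets, 4 were higher and 1 lower in blastocysts with no overlap of the stages, and the exception was Ppard. Over all tested probe sets 31.4% were higher and 29.8% lower without overlap (61.2% in all). The Ppard probe set 1439797_at gave 320.8, 263.0, 323.6 and 312.8 in blastocysts and 187.5, 175.2, 178.8 and 296.7 in 8-cell embryos. The 8-cell replicate 4 stood above the blastocyst replicate 2 and far above the other 8-cell arrays. The means were 305.0 ± 28.4 and 209.6 ± 58.3 (SD, n = 4 each), with a difference of 0.54 (SE 0.18, adjusted p = 0.0248 by limma), 1.45-fold. The call did not last when any of several arrays was left out: the adjusted p was 0.0572, 0.0596 and 0.0520 without blastocyst replicates 1, 3 and 4, and 0.0593, 0.0642 and 0.0620 without 8-cell replicates 1, 2 and 3. Without blastocyst replicate 2 it was 0.0273, and without 8-cell replicate 4 the difference was 0.70 (adjusted p = 0.00169). With quantile scaling the difference was 0.31 and did not pass (adjusted p = 0.167), and with the hybridisation control scaling it was 0.98, or 0.55 relative to that scaling's median. The other Ppard probe set, 1425703_at, was dim, with 24.6, 49.5, 5.37 and 9.45 in blastocysts and 10.1, 5.00, 4.10 and 33.6 in 8-cell embryos. It lay above the 40th percentile on 1 array of each stage and was not tested in the main comparison (difference 0.35, adjusted p = 0.521 by limma with no filter).

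RNA had been amplified before labelling, and control probe sets at both ends of a transcript show how far copies reached the 5' end. The excess of the 3' over the 5' signal of Actb, in log2 units, averaged 0.82 ± 0.11 in blastocysts against 2.42 ± 0.19 in 8-cell embryos (SD, n = 4 each). For Gapdh it averaged 1.36 ± 0.11 in blastocysts against 2.32 ± 0.26 in 8-cell embryos. Both were smaller in blastocysts (p = 0.0286 each by exact permutation, adjusted p = 0.0286 over the 2 genes). This excess moves with the stage as the member differences do, and its part in them was not tested. The stage labels were checked against markers. Trophectoderm genes were higher for 11 of 12 tested, primitive endoderm genes for 8 of 10, and oocyte genes were lower for 11 of 11. Cdx2, a trophectoderm factor, was at 8469 to 9162 in blastocysts and 579.7 to 721.4 in 8-cell embryos. Obox6, a homeobox gene of the oocyte list, was at 234.5 to 414.9 in blastocysts and 16843 to 21280 in 8-cell embryos. It was far brighter than the rest of that list in 8-cell embryos. The other 10 genes summed to 367.7 to 454.9 in blastocysts and 5529 to 8799 in 8-cell embryos. Inner cell mass genes were split, with 4 higher and 5 lower of 10. In the fit with 1 probe set per gene that gave these counts, 37.5% of all genes were called higher and 34.2% lower.

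Cumulus cells, which surround the ovulated egg, make Ptgs2 around ovulation. Of 14 cumulus and granulosa cell markers with a probe set 7 were tested, of which 1 was higher in blastocysts, 2 were lower and 4 did not pass. Their summed signal ranged from 552.4 to 609.2 in blastocysts and from 797.4 to 905.3 in 8-cell embryos. The ovulatory cumulus genes Has2, Ptx3 and Tnfaip6 were dim at both stages and missed the filter. Has2 gave 13.8 to 36.6 in blastocysts and 4.30 to 19.9 in 8-cell embryos. Ptx3 gave 7.63 to 20.4 in blastocysts and 4.80 to 37.0 in 8-cell embryos, and Tnfaip6 1.96 to 23.5 in blastocysts and 2.90 to 25.3 in 8-cell embryos. The lower sum in blastocysts rested on 1 gene, Inhbb, at 99.99 in blastocysts and 331.4 in 8-cell embryos. Without it the other 13 markers summed to 430.0 to 527.2 in blastocysts and 438.8 to 669.2 in 8-cell embryos, with overlap. The summed signals of the oviduct and uterine epithelium markers were 2808 to 3532 in blastocysts and 400.5 to 494.9 in 8-cell embryos (of 9 with a probe set 5 were tested, 3 higher, 1 lower and 1 not passing). Nearly all of that rise was Wfdc2, at 2748 in blastocysts and 60.4 in 8-cell embryos, and the other 8 markers summed to 303.8 to 410.1 in blastocysts and 362.1 to 469.6 in 8-cell embryos. Fibroblast markers summed to 2172 to 2428 in blastocysts and 280.6 to 444.6 in 8-cell embryos (of 10 with a probe set 5 were tested, 3 higher, 0 lower and 2 not passing). Most of it was Fbln1, at 1940 in blastocysts and 96.1 in 8-cell embryos, and the other 9 summed to 297.1 to 591.6 in blastocysts and 227.2 to 326.9 in 8-cell embryos. Blood cell markers summed to 296.9 to 484.3 in blastocysts and 356.8 to 404.2 in 8-cell embryos, with 1 higher and 1 lower of 4 tested. Without Cd52 (29.3 in blastocysts and 139.6 in 8-cell embryos) the other 8 summed to 266.3 to 442.5 in blastocysts and 209.6 to 277.1 in 8-cell embryos. Beside the counts of these marker lists stand 37.5% called higher and 34.2% called lower over all genes. The genes left out of these sums were chosen after their values were seen. The part of these cells in the rise of Ptges was not tested.

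The genes around the members were counted 1 value per gene, by the brightest probe set of each gene that passed the filter, in a limma fit over 13290 genes. There 37.5% of the genes were called higher and 34.2% lower (71.7% in all), with a median difference of 0.02. The 8 lists of the pathway name 141 genes, of which 128 had a probe set and 101 were tested. In these 101 the call was higher for 45, lower for 30 and not made for 26, and the median difference was 0.26. The lists were written with earlier results of these data known. Called genes with the largest differences, up to 4 per list, are named. Their adjusted p by limma lay between 1.41e-09 (Fabp3) and 0.017 (Tbxas1). There are 31 of them, and none of the 12 that had another tested probe set had one called in the opposite direction.

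**Figure D3:**
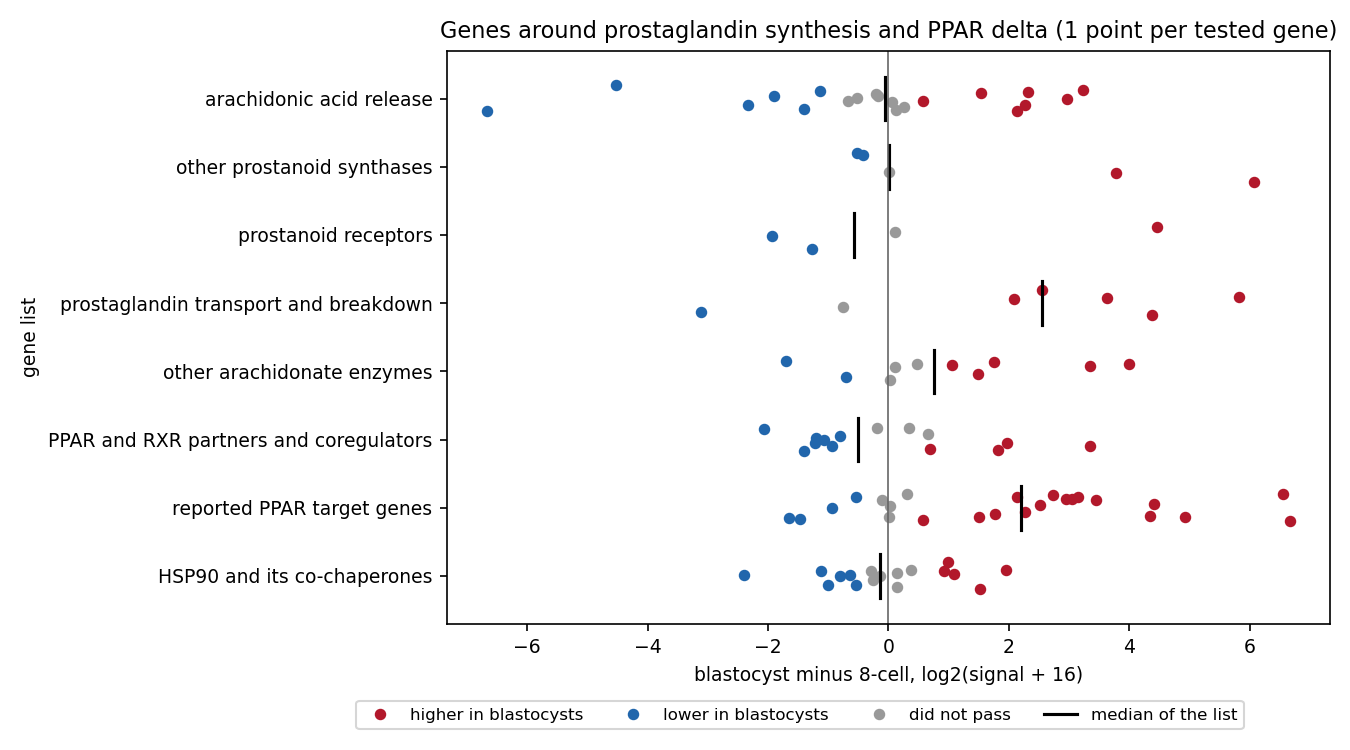
Blastocyst minus 8-cell difference on the log2(signal + 16) scale of each tested gene in 8 lists, coloured by its limma call, with the list's median as a black line. Transport and breakdown genes (median 2.56) and reported PPAR targets (2.20) lie mostly to the right of 0, and the release genes (-0.06) spread to both sides.

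Among genes of arachidonic acid release the call was higher for 7 of 20 tested, lower for 6 and not made for 7, with a median of -0.06. These shares are close to the 37.5% higher and 34.2% lower over all genes. Pla2g10, a secreted phospholipase A2, rose by 2.96 (SE 0.13), with 2373 ± 382 in blastocysts and 287.7 ± 9.41 in 8-cell embryos. Faah, which breaks down fatty acid amides such as anandamide, rose by 3.23 (SE 0.15). Acsl4, which activates arachidonic acid with coenzyme A and so keeps it bound, fell by 6.67 (SE 0.29), and the cytosolic phospholipase family member Pla2g4e fell by 4.53 (SE 0.24). Pla2g4a, the cytosolic phospholipase A2 best known for feeding the cyclooxygenases, missed the filter. It gave 1.20 to 1.81 in blastocysts and 31.4 to 69.7 in 8-cell embryos, where 3 of 4 arrays were above the 40th percentile. It is the nearest measured neighbour of Ptgs2 on chromosome 1 on one side, and like Ptgs2 it was under that level on all blastocyst arrays.

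Among the other prostanoid synthases the call was higher for 2 of 5 tested genes, lower for 2 and not made for 1 (median 0.00). The shares over all genes were 37.5% higher and 34.2% lower. Akr1b8, an aldo-keto reductase, rose by 6.08 (SE 0.18) to 15307 ± 1414 in blastocysts, against 215.1 ± 56.3 in 8-cell embryos. Gstm2, a glutathione transferase, rose by 3.79 (SE 0.23). Both have broad substrates, and which of them they used in these embryos was not measured. Cbr1, a carbonyl reductase that can act on prostaglandin E2, fell by 0.52 (SE 0.12), and Tbxas1, the thromboxane synthase, by 0.42 (SE 0.13). Ptgds, a prostaglandin D synthase, was at 76.3 ± 17.6 in blastocysts and 75.4 ± 11.99 in 8-cell embryos and did not pass (adjusted p = 0.993 by limma).

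Cell-surface prostanoid receptors were mostly dim. Of 10 listed genes 4 were tested, of which 1 was higher, 2 were lower and 1 did not pass (median -0.58). All genes together gave 37.5% higher and 34.2% lower. Ptger4, a prostaglandin E2 receptor, fell by 1.94 (SE 0.23). It gave 66.7, 26.0, 48.0 and 52.6 in blastocysts and 169.0, 206.3, 239.2 and 297.3 in 8-cell embryos, with no overlap. Tbxa2r, the thromboxane receptor, fell by 1.27 (SE 0.15), with 115.5 ± 23.6 in blastocysts and 297.4 ± 21.97 in 8-cell embryos. The higher gene, Ptgfrn (4.46, SE 0.19), encodes a membrane partner of the prostaglandin F receptor and no receptor itself. The prostacyclin receptor gene Ptgir gave 2.57 to 23.4 in blastocysts and 2.70 to 46.1 in 8-cell embryos and missed the filter, as did Ptger1, Ptger2 and Ptger3, receptors of prostaglandin E2.

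Genes for moving and breaking down prostaglandins were mostly higher in blastocysts. The call was higher for 5 of 7 tested genes, lower for 1 and not made for 1, with a median of 2.56. Over all genes 37.5% were called higher and 34.2% lower, with a median of 0.02. Ptgr1 and Ptgr2 encode reductases that act on 15-keto prostaglandins. Ptgr1 gave 18537, 18120, 16423 and 17297 in blastocysts and 778.8, 842.4, 847.8 and 845.0 in 8-cell embryos (difference 4.38, SE 0.10, adjusted p = 4.85e-09 by limma). Ptgr2 rose by 3.62 (SE 0.18), with 1331 ± 53.2 in blastocysts and 95.8 ± 27.7 in 8-cell embryos. Neither gene's stages overlapped. Abcc4, an efflux pump that carries prostaglandins among other substrates, rose by 5.83 (SE 0.34), and Slco3a1, an uptake carrier, fell by 3.12 (SE 0.21). Slco2a1, the prostaglandin transporter, also rose (2.56, SE 0.23) and was named after its value was seen. Hpgd, the dehydrogenase that makes the 15-keto forms, gave 23.2 to 59.8 in blastocysts and 15.4 to 30.9 in 8-cell embryos and missed the filter. Among other enzymes of arachidonate use 5 of 10 tested were higher, 2 lower and 3 did not pass (median 0.76). They included the leukotriene A4 hydrolase Lta4h (4.00, SE 0.23), the P450 Cyp4f13 (3.34, SE 0.32) and the epoxide hydrolase Ephx1 (1.76, SE 0.18), all higher, and the lipoxygenase family gene Aloxe3, which fell by 1.70 (SE 0.18).

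**Figure D4:**
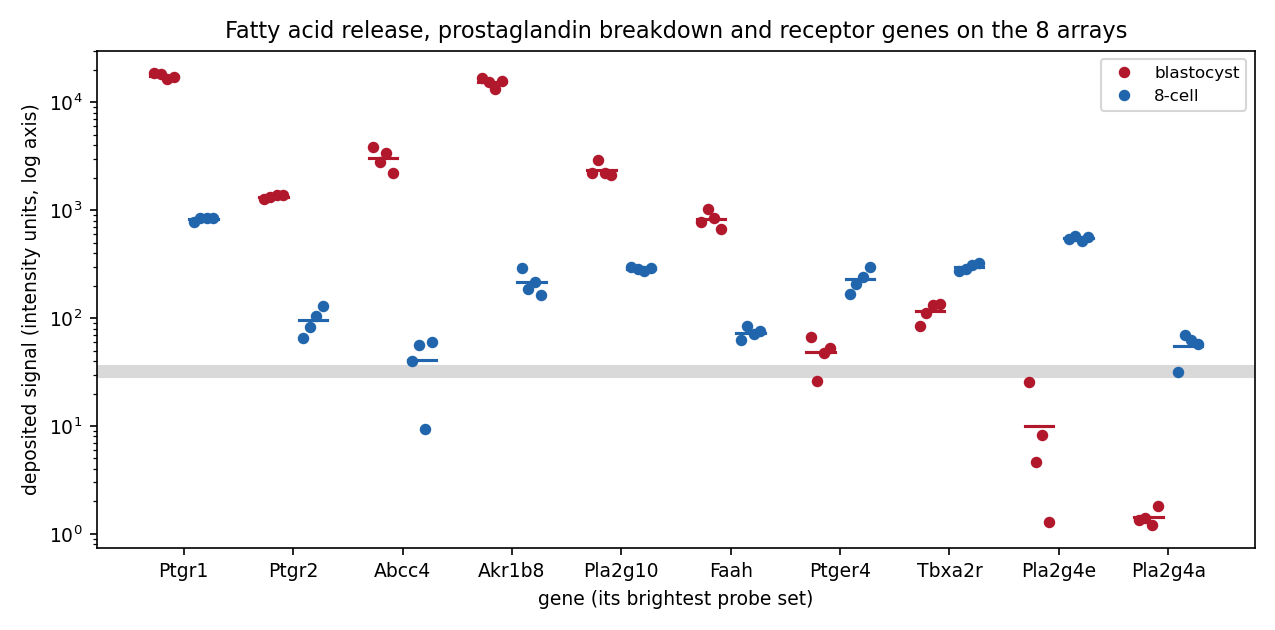
Deposited signal (log axis) of 10 genes of arachidonate release, prostaglandin synthesis, transport, breakdown and reception on each array, with blastocyst arrays (red) left of 8-cell arrays (blue), lines at the means and a grey band for the range of the arrays' 40th percentile. Ptgr1 lies at 16423 to 18537 in blastocysts and 778.8 to 847.8 in 8-cell embryos, while Ptger4, Tbxa2r, Pla2g4e and Pla2g4a are lower in blastocysts. Pla2g4a missed the filter and was not tested. The 10 genes were selected by hand, and Acsl4 and Slco3a1, which fell, are not drawn.

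PPAR delta acts with retinoid X receptors and coregulators. Among 14 tested partner genes the call was higher for 4, lower for 7 and not made for 3 (median -0.50). For comparison, 37.5% of all genes were called higher and 34.2% lower. Ppargc1b, a coactivator of nuclear receptors, rose by 3.34 (SE 0.16), with 1577 ± 171 in blastocysts and 142.8 ± 29.5 in 8-cell embryos. Fabp5, a fatty acid carrier described as handing ligands to PPAR delta, rose by 1.97 (SE 0.16), and the coactivator Ncoa1 by 1.82 (SE 0.17). The acetyltransferase Ep300 fell by 2.06 (SE 0.11). The heterodimer partners Rxra, Rxrb and Rxrg are named after their values were seen, and they did not move together. Rxra and Rxrb had differences of -1.22 (SE 0.20) and -0.80 (SE 0.16), both lower in blastocysts (adjusted p = 0.000338 and 0.00142 by limma). Rxrg was called higher, by 0.69 (SE 0.26, adjusted p = 0.0365 by limma), with overlap of the stages. In 8-cell embryos Rxrg was above the 40th percentile on 2 of 4 arrays. The receptors Ppara and Pparg missed the filter. Ppara was at 26.6 ± 24.9 in blastocysts and 38.3 ± 14.2 in 8-cell embryos, and Pparg at 5.04 ± 2.62 in blastocysts and 3.35 ± 0.48 in 8-cell embryos, so Ppard was the PPAR gene with a tested probe set.

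Genes reported as PPAR targets, a list that rests on other tissues and on the 3 PPARs together, were mostly higher. Of 24 tested 16 were higher, 4 lower and 4 did not pass, with a median of 2.20. Over all genes 37.5% were called higher and 34.2% lower, with a median of 0.02. Fabp3, a fatty acid carrier, rose by 6.66 (SE 0.13) to 24136 ± 1704 in blastocysts, against 223.1 ± 27.9 in 8-cell embryos. Ech1, an enzyme of fatty acid oxidation, rose by 6.56 (SE 0.34), the lipoprotein lipase gene Lpl by 4.92 (SE 0.29) and the carnitine transferase gene Cpt2 by 4.41 (SE 0.47). Of the genes that did not pass, 2 are named after their values were seen. Angptl4, often used as a readout of PPAR delta, was at 388.7 ± 56.7 in blastocysts and 386.7 ± 40.3 in 8-cell embryos (difference 0.00, SE 0.14, adjusted p = 0.996 by limma), and Cpt1a differed by 0.31 (SE 0.17, adjusted p = 0.126 by limma). Pdk4 missed the filter. The carnitine carrier gene Slc25a20, also named after its value was seen, fell by 1.48 (SE 0.22). Another gene of the list named in this way, Plin2, rose by 4.34 (SE 0.18, adjusted p = 6.58e-08 by limma). The activity of PPAR delta was not measured.

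Ptges3 is also known as p23, a co-chaperone of HSP90. Of 17 tested genes of that chaperone system the call was higher for 5, lower for 6 and not made for 6 (median -0.14). These counts stand beside 37.5% higher and 34.2% lower over all genes. The co-chaperone genes Ahsa2 and Fkbp4 rose by 1.95 (SE 0.15) and 1.51 (SE 0.14), and Stip1 and Ppp5c had differences of -2.40 (SE 0.12) and -1.13 (SE 0.20), both lower in blastocysts. Of the 31 named genes, Gstm2 and Lpl were under the 40th percentile on all 8-cell arrays, and Pla2g4e and Slco3a1 on all blastocyst arrays, and 7 others (Acsl4 and Ptger4 in blastocysts, Ptgfrn, Abcc4, Cyp4f13, Cpt2 and Ech1 in 8-cell embryos) were under it on 1 to 3 arrays of their lower stage. The sizes of these 11 differences depend on the added 16. Gstm2, Lpl, Pla2g4e and Slco3a1 passed the filter, and so entered the counts, through their higher stage alone, as did some unnamed genes of the lists.

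For each of the 4 members with a tested probe set, the 3 genes of most similar pattern were found among 12609 others by the root mean square difference of log2 values over the 8 arrays, each gene centred on its own mean. These are descriptions over arrays that share 2 stages. Closest to Ptges were Fuca1 (0.11), Tpm1 (0.17) and Hibadh (0.17), with 6 genes within 0.2. Closest to Ptgis were the pluripotency-related nuclear receptor genes Esrrb (0.08) and Nr5a2 (0.09), and Zyg11a (0.09). Nr5a2 gave 3326 ± 460 in blastocysts and 8490 ± 671 in 8-cell embryos, and 102 genes lay within 0.2 of Ptgis. Closest to Ptges2 were Sgo1 (0.09), Cbx1 (0.09) and Cd164 (0.10), with 362 within 0.2. Closest to Ppard were Get3 (0.11), Ttll4 (0.11) and Snd1 (0.12), with 131 within 0.2.

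Position on the chromosome was not used to choose the members. In the RefSeq table Ptges, Ptges2, Ptgis and Ptgs1 lie on chromosome 2, Ptgs2 on chromosome 1, Ptges3 on chromosome 10 and Ppard on chromosome 17. The nearest protein-coding neighbours with a probe set were chosen by position after the members' values were seen. Beside Ptges, Prrx2 missed the filter (15.0 ± 5.13 in blastocysts and 14.6 ± 10.5 in 8-cell embryos) and Tor1b fell by 2.38 (SE 0.11). Beside Ptgis, which was lower, both Znfx1 (1.90, SE 0.26) and B4galt5 (3.08, SE 0.18) were higher in blastocysts. Beside Ptges2, Slc25a25 fell by 2.26 (SE 0.17) and Lcn2 missed the filter. Beside Ppard, Def6 and Fance did not pass, with differences of -0.28 (SE 0.24, adjusted p = 0.318 by limma) and -0.01 (SE 0.17, adjusted p = 0.957).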

How the data were processed

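The deposited table holds signal intensity values, linear, for 45101 probe sets on 8 arrays (4 blastocyst, 4 8-cell, by title). Which software the authors used is not stated in the sources read. The array totals were set alike, with a trimmed mean of 500 on each array (outer 2% removed from each end). Blastocyst values carry more decimals than the 8-cell values, which have 1, and any difference in how the stages were processed cannot be told apart from stage. Per the labels' protocols, RNA was amplified from small samples and biotin-labelled. The 64 control probe sets stayed out. The platform annotation gave 1 symbol to 34945 probe sets, several to 932, and 9160 are unnamed here.

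Values became log2(signal + 16), and the deposited scale was kept since array medians differed by under 0.5. Limma (lmFit, eBayes, no covariates) tested blastocyst minus 8-cell over 28227 probe sets, and over 13290 genes for the lists. Members and lists were chosen with earlier results of these data known. Named genes are the members, the 4 called genes of largest difference per pathway list, the 3 most similar genes per member and fixed markers. Other list genes were named outside these rules, with their values known. Among them are Pla2g4a, Ptgds, Ptgir, Hpgd, Ppara, Pparg, Pdk4, Ptger1, Ptger2 and Ptger3. The test was run on simulated data, where 5.76% of calls were false. Changes of 0.5, 1 and 2 in log2 units were called in 1.79%, 42.8% and 91.1% of cases. Only a small part of the simulated probe sets changed, unlike here, so these shares do not carry over to the data. Alternatives were other scalings, filters, added constants, variance models, array weights, a replicate block, probe set rules and leaving out each array. R 4.3.3, limma 3.58.1, the data.table package (version 1.17.8), Python 3.11.15 and matplotlib 3.10.9 were used.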

Additional observations from a re-analysis of the deposited data

Results flagged for a closer look

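Each stage of each member probe set was checked for an array that stood apart from its group by Dixon's ratio, the gap to the nearest array over the range of the stage on the log2(signal + 16) scale, against the 95% critical value for 4 samples. Chance exceeds it in about 1 group in 20, and 3 of 18 groups did here. Ppard 1439797_at had a high 8-cell array, replicate 4 at 296.7 (ratio 0.873), and a low blastocyst array, replicate 2 at 263.0 (ratio 0.836). These are the arrays whose values make the stages overlap. Without 8-cell replicate 4 the difference of Ppard was 0.70 (adjusted p = 0.00169 by limma), and without blastocyst replicate 2 it was 0.60 (adjusted p = 0.0273). Ptgs2 1417262_at had a high blastocyst array, replicate 2 at 11.2 (ratio 0.933), which was still under the 40th percentile of its array.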

How the results depend on the processing

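The 3 Ptges probe sets and Ptgis kept their direction and stayed under 0.05 in all 19 or 20 alternative settings run for each, with differences of 3.06 to 5.26 over the Ptges probe sets and -1.43 to -0.91 for Ptgis. Ptges2 passed in 19 of 20 settings and Ppard in 13 of 20, both failing with quantile scaling. The number of member probe sets called higher, 5, became 3 with quantile scaling. It was also 3 when each gene counted once, where Ptges has 1 probe set in place of 3. It was 4 to 5 when an array was left out. Scaling to the 9 bacterial hybridisation controls left 4875 probe sets lower, against 9251, and 70.3% of calls higher, against 50.6%. With the second set of control probe sets included, a choice made after the data were seen, 5468 were lower and 66.9% of calls were higher; the median difference of all probe sets moved from -0.01 to 0.43 and 0.34 in these scalings. The within-array differences ranged from 3.47 to 4.18 and from -6.09 to -5.30. Scalings that shift an array as a whole cannot change them, and their p is the smallest the design gives, so neither shows stability. The replicate numbers of the titles did not pair the arrays (correlations of deviations between -0.03 and -0.01 for same-numbered arrays). With the replicate block, 5 members were higher and 1 lower, and 9263 of all probe sets were higher and 8921 lower. Signals under the 40th percentile of an array, as for Ptgs2 and for Ptges on some 8-cell arrays, limit what can be said of the size or order of a difference.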
